A study of Mus musculus with 12 samples.

Results

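*Saa3*, *Lcn2*, *Hp*, *Slpi*, *Ptx3* and *Tnfaip6* encode secreted acute-phase and defence proteins, and their rows were read in the gene by cell tables of 12 libraries of mouse joint stroma, sequenced cell by cell (scRNA-seq). They are 6 of the 27998 genes in the files and were picked by name, with results of these data known. The libraries held live cells of hind limb joints that had been sorted as negative for CD45, a surface marker of immune cells, and each was a pool of 3 wild-type C57BL/6 mice, male and 8 to 10 weeks old per the study's methods. Joint inflammation (serum transfer-induced arthritis, STIA) was started by intravenous serum of arthritic K/BxN mice, and 4 labels with 3 libraries each name its course. Rest libraries come from day 0 without treatment, peak libraries from days 7 to 9, resolving ones from day 15, and resolved ones are of day 22. After quality control 20060 cells remained, between 1227 and 2747 per library, with 7468914 to 16566202 UMIs (unique molecular identifiers, each counting a captured transcript once) per library, and no pair of libraries shared a cell barcode.

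An acute-phase protein is one whose production changes during inflammation. Cytokines such as interleukin-6 and interleukin-1 drive this response, largely through transcription factors of the STAT, C/EBP and NF-kB families. The liver is its best known source, but fibroblasts of inflamed connective tissue make several such proteins too. *Saa3* is a serum amyloid A protein made mainly outside the liver, and *Hp* (haptoglobin) binds free haemoglobin. *Lcn2* (lipocalin 2) withholds iron from bacteria by binding their siderophores, and *Slpi* (secretory leukocyte peptidase inhibitor) blocks neutrophil elastase. *Ptx3* (pentraxin 3) is a soluble pattern recognition molecule, and *Tnfaip6* (TSG-6) binds hyaluronan and moves heavy chains of inter-alpha-inhibitor onto it.

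All 6 are protein-coding genes (GENCODE M21, GRCm38). *Saa3* lies at chr7:46711998-46715700, *Lcn2* at chr2:32384633-32388252, *Hp* at chr8:109575128-109579172 and *Slpi* at chr2:164354070-164389095, all on the minus strand. *Ptx3* lies at chr3:66219910-66225805 and *Tnfaip6* at chr2:52038009-52056686, both on the plus strand. *Saa3* has close paralogs in *Saa1* and *Saa2*, so reads that fit more than one of them could have been dropped, *Slpi* overlaps the microRNA gene *Mir7678*, and *Ptx3* overlaps *Veph1* on the opposite strand.

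The sequences before the start of a gene are where factors of this response can bind, and the RefSeq promoter table (GRCm38.p6) held 5 of the 6 genes, while *Hp* had no entry. Both strands of the 250 bases before each RefSeq start were searched for TTNNGNAA (C/EBP), TTCNNNGAA (STAT), TGANTCA (AP-1) and the NF-kB consensus. Matches of these patterns can share bases. The RefSeq starts differ from the gene starts of GENCODE, and distances count from the RefSeq ones. The C/EBP pattern matched in 5 of 5 promoters, against 36.8% of the 32851 promoters of the same length. The STAT and AP-1 patterns each matched in *Tnfaip6* alone, against 7.02% and 6.75% of all promoters, and the NF-kB consensus in 0 of 5, against 3.90%. A match describes letters and not a bound factor. Stretches before the RefSeq start of 3 genes are printed with their matches in capitals. They are *Saa3*, with the most C/EBP matches of the 5, *Ptx3*, whose match lies nearest to its RefSeq start, and *Tnfaip6*. The last holds 3 of the patterns (from the left STAT, AP-1 and C/EBP). *Saa3* had 4 C/EBP matches, between 216 and 92 bases before its RefSeq start. Its stretch is given at chr7:46715701-46715926 on the minus strand. *Ptx3* is given at chr3:66219637-66219886 and *Tnfaip6* at chr2:52037863-52038012, both on the plus strand. The stretches of *Saa3* and *Tnfaip6* stop short of their RefSeq starts, and the C/EBP match of *Tnfaip6* overlaps the start of its GENCODE gene.
Saa3: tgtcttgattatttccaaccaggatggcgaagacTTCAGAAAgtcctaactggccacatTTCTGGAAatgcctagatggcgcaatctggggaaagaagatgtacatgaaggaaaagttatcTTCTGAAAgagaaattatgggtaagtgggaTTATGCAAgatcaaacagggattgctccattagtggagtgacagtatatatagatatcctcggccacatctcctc
Ptx3: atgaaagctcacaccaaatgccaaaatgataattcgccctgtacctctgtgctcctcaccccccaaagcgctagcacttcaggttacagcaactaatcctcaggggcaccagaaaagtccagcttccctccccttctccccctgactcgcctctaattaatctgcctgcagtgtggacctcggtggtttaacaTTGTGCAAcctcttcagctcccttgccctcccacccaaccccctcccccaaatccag
Tnfaip6: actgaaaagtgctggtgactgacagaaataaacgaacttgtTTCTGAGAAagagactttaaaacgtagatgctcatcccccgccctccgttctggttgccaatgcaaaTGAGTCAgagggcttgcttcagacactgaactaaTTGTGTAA

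*Lcn2* had 1 C/EBP match, 216 to 209 bases before its RefSeq start, and *Slpi* had 3, the nearest at 64 to 57 bases. Their searched windows, chr2:32387740-32387989 and chr2:164356508-164356757, lie inside the GENCODE genes given above.

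Cell types are not named in the deposited tables. They were therefore assigned here, by clustering on other genes than the 6 and reading marker genes. Of the cells, 11497 in 8 clusters were fibroblast-like (57.3%, and 47.4% to 63.4% per library), with a median of 5512 UMIs per cell. Levels are UMIs scaled to a common total (CPM, the usual depth-scaled count) over all cells of one type in one library, with at least 10 cells, as mean ± SD over libraries. In such sums fewer cells that make a gene and less RNA per cell cannot be told apart. Since the genes were picked with results known, their levels across cell types are described and not tested.

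*Saa3*, *Ptx3* and *Tnfaip6* had their highest mean in fibroblast-like cells, while *Lcn2*, *Hp* and *Slpi* had theirs in a small immune-like cluster that was measured in 3 libraries of runs 4-6 and 7-9 alone (the runs are described further on). In fibroblast-like cells (n = 12 libraries) *Saa3* stood at 509 ± 518 CPM, *Ptx3* at 172 ± 109 CPM and *Tnfaip6* at 1251 ± 470 CPM. *Tnfaip6*, with the smallest spread for its mean, was next highest in Schwann-like cells (1148 ± 881 CPM, n = 3) and proliferating-like cells (868 ± 454 CPM, n = 6), and its difference between fibroblast-like and Schwann-like cells stayed within the spread of the 3 libraries with both. No library had enough of both Schwann-like and proliferating-like cells to compare them. Tenocyte-like cells, the cells of tendon, followed fibroblasts for *Saa3* with 385 ± 743 CPM (n = 12), again within the spread. *Ptx3* was 149 ± 69.0 CPM in proliferating-like cells and higher in fibroblast-like cells in 6 of the 6 libraries that had both, a difference larger than its spread.

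Vascular endothelial-like cells, which served as the background for stray RNA, held 7.59 ± 7.30 CPM of *Saa3*, 4.92 ± 6.16 CPM of *Ptx3* and 53.0 ± 28.2 CPM of *Tnfaip6* (n = 12). Their 1771 cells had a median of 3186 UMIs, fewer than the fibroblasts, so shares of cells were also taken after every cell was thinned to 2000 UMIs. Of the fibroblast-like cells, 10.8% had a UMI of *Saa3* (95% Wilson interval 10.3% to 11.4%, which covers counting error only), and 7.09% did after thinning, against 1.40% of vascular endothelial-like cells. The thinned shares in fibroblasts and vascular endothelial-like cells were 6.93% and 0.764% for *Lcn2*, 13.3% and 1.34% for *Hp*, and 10.2% and 1.21% for *Slpi*. For *Ptx3* they were 13.3% and 0.637%, and for *Tnfaip6* 49.1% and 7.39%. Over all libraries the share in fibroblasts was above this background share for all 6 genes. Within runs 1-3 and 10-12, however, the thinned fibroblast shares were 0.949% and 0.552% for *Saa3* and 0.784% and 0.617% for *Slpi*, below the background over all libraries. In the vascular endothelial-like cells of those 2 runs, *Saa3* was found in 1 of 369 (0.271%) and 2 of 641 cells (0.312%). *Slpi* was found there in 1 of 369 (0.271%) and 0 of 641. The fibroblast shares were thus above the background shares of the same runs, which rest on very few cells with a UMI. In these runs *Saa3* and *Slpi* are therefore read as low, and their distance from the background was not tested.

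The immune-like cluster (112 cells, with at least 10 cells in 3 libraries) was led by neutrophil genes, although the sort had selected against CD45. It held 5852 ± 3559 CPM of *Lcn2*, 955 ± 632 CPM of *Hp* and 899 ± 190 CPM of *Slpi* (n = 3). *Lcn2* is a known granule protein of neutrophils. The mean of *Lcn2* in lymphatic endothelial-like cells was lower, 418 ± 295 CPM (n = 10), and the immune-like sums were higher in all 3 libraries with both, by more than the spread. For *Hp* the immune-like sums were above the fibroblast-like ones in 2 of the 3 shared libraries (283 ± 659 CPM higher on average), and for *Slpi* above the proliferating-like ones in 2 of 3 (257 ± 413 CPM), both within the spread. In fibroblast-like cells *Lcn2* averaged 73.6 ± 76.4 CPM, *Hp* 384 ± 354 CPM and *Slpi* 351 ± 438 CPM (n = 12).

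Lymphatic endothelial-like cells, with a median of 3482 UMIs, were the type with the highest share of cells with *Lcn2*, 48.9% (Wilson interval 41.8% to 56.1%), and 40.5% after thinning. Immune-like cells were close, with 41.1% (Wilson interval 32.4% to 50.3%), and 38.7% after thinning. Tenocyte-like cells held 262 ± 295 CPM of *Lcn2* and 249 ± 331 CPM of *Slpi* (n = 12), and proliferating-like cells 724 ± 541 CPM of *Slpi* (n = 6). In these 6 libraries *Slpi* was 39.2 ± 180 CPM higher on average in proliferating-like than in fibroblast-like cells. It was higher in 4 of the 6, and the difference stayed within the spread. *Hp*, after the immune-like and fibroblast-like cells, averaged 222 ± 62.4 CPM in proliferating-like and 171 ± 204 CPM in perivascular-like cells. *Hp* was higher in fibroblasts than in proliferating-like cells in 6 of 6 libraries, beyond the spread, and the order below that was not separated from it.

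**Figure D1:**
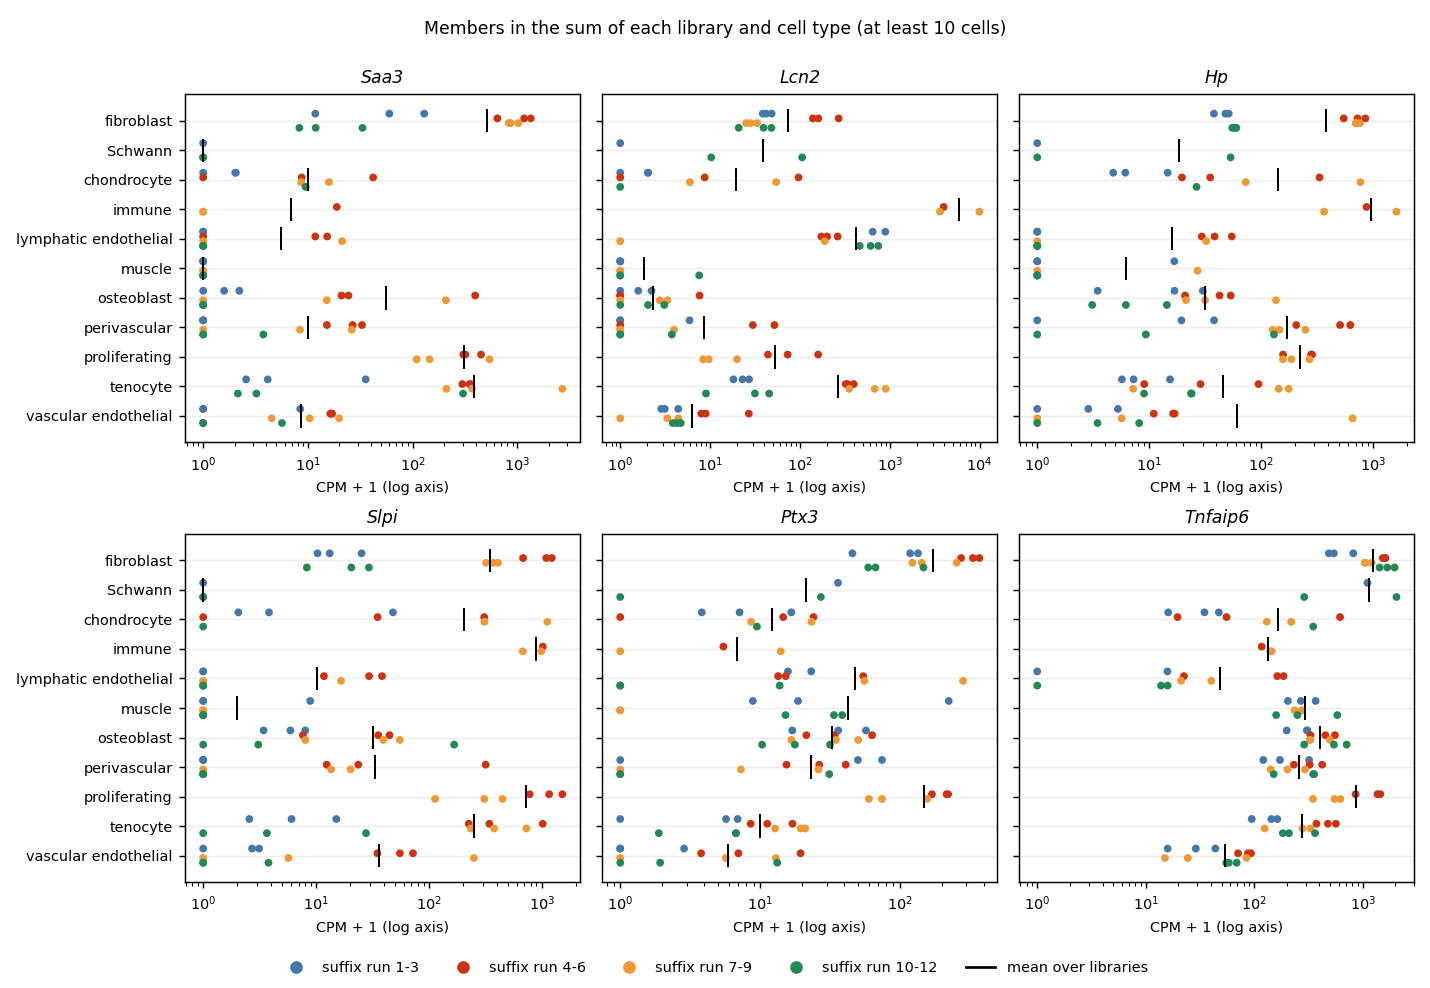
Level of each gene in each named cell type, as CPM + 1 on a log axis, with a point for each library with at least 10 cells coloured by its run of barcode suffixes and a black tick at the mean over libraries. Fibroblast-like cells lead for *Saa3*, *Ptx3* and *Tnfaip6*, and the immune-like cluster (n = 3 libraries) leads for *Lcn2*, *Hp* and *Slpi*.

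Within the fibroblasts the 6 genes did not share one cluster. The cluster led by *Cxcl5*, *Sfrp1* and *Chl1* (1545 cells) had the highest mean of *Saa3* (1769 ± 1264 CPM), *Hp* (1114 ± 576 CPM) and *Slpi* (983 ± 542 CPM, n = 6). The cluster led by *C4b*, *Inmt* and *Serpina3c* (1836 cells) had the highest mean of *Lcn2* (192 ± 91.8 CPM), *Ptx3* (355 ± 199 CPM) and *Tnfaip6* (2231 ± 1028 CPM, n = 12). These means rest on different libraries. In the 6 libraries with both, *Slpi* was higher in the lining-like cluster described next in 5, and the mean difference of the *Cxcl5*, *Sfrp1* and *Chl1* cluster from it was -860 ± 1209 CPM. The lead of the *C4b*, *Inmt* and *Serpina3c* cluster for *Lcn2* over the *Cxcl5*, *Sfrp1* and *Chl1* cluster was larger than the spread and held in 6 of 6 libraries with both, and no other leading cluster was set apart from the next by more than its spread.

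The lining-like cluster, named from markers of the cells that face the joint cavity (*Rab37*, *F13a1* and *Col22a1* led it, 1196 cells), had a profile of its own. It held 962 ± 1207 CPM of *Slpi*, 1601 ± 955 CPM of *Tnfaip6* and 307 ± 362 CPM of *Hp*, but only 7.19 ± 10.2 CPM of *Lcn2* and 19.4 ± 13.4 CPM of *Ptx3* (n = 12). The cluster led by *Pi16*, *Dpp4* and *Efhd1* (1707 cells), sublining-like by its markers, showed the reverse for some of them, with 6.16 ± 7.61 CPM of *Slpi* and 180 ± 119 CPM of *Ptx3*. *Tnfaip6* stood at 1609 ± 709 CPM there, within the spread of the lining-like cluster. The cluster led by *Fbxo2*, *Dio2* and *Col8a1* (944 cells) had the lowest mean of *Saa3* (5.79 ± 8.17 CPM) and of *Tnfaip6* (273 ± 123 CPM).

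Some clusters with fibroblast markers came mostly from some libraries. The *Cxcl5*, *Sfrp1* and *Chl1* cluster, whose cells had a median of 10716 UMIs, took 87.6% of its cells from libraries with barcode suffixes 4 to 6 and 12.2% from 7 to 9. The cluster led by *Col14a1*, *Acp5* and *Mdk* (1510 cells) took 82.7% from suffixes 7 to 9, and it held 582 ± 745 CPM of *Saa3* and 410 ± 458 CPM of *Hp* (n = 9). A further cluster (*C1qtnf3*, *Spon2* and *Rgs2*, 1297 cells, 91.8% from suffixes 7 to 9) stayed unnamed and was not counted among the fibroblasts.

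**Figure D2:**
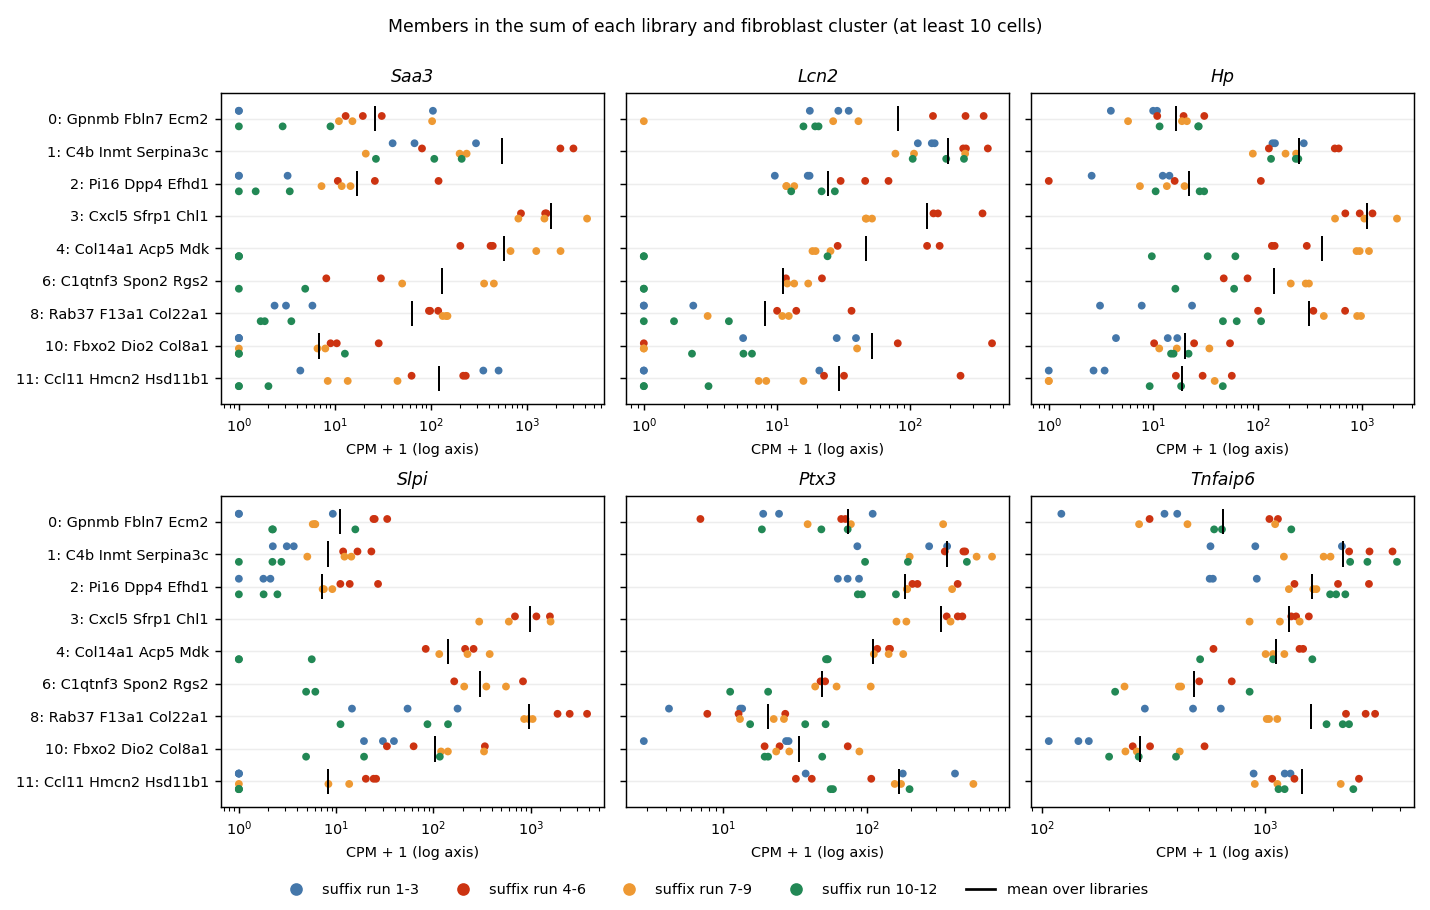
Level of each gene in the fibroblast-like clusters and in the unnamed cluster led by *C1qtnf3*, as CPM + 1 on a log axis, with a point for each library with at least 10 cells coloured by suffix run and a black tick at the mean. *Slpi* is high in the lining-like cluster and near the floor in the sublining-like one, while *Ptx3* and *Lcn2* are low in the lining-like cluster.

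Before conditions are compared, a property of the libraries matters. The barcodes of a library end in a number from 1 to 12. For 12 of 12 libraries, the one most like it in its fibroblast sum over 11763 genes had a suffix in the same set of 3 (1-3, 4-6, 7-9 or 10-12, called runs here), and for 0 of 12 did it share the label. Run 1-3 holds the libraries labelled rest 1, peak 1 and resolving 1, run 4-6 those labelled resolved 1, rest 2 and peak 2, run 7-9 resolving 2, resolved 2 and rest 3, and run 10-12 peak 3, resolving 3 and resolved 3. No label occurs more than once in a run, so the count by label follows from the count by run. Because the libraries were alike by run, the labels are given as the libraries carry them. The runs are set beside them as groups that come from the files and not from the study. Every label spans 3 runs and misses the other. Rest has no library in run 10-12, peak none in 7-9, resolving none in 4-6 and resolved none in 1-3. A comparison by label thus also differs in its runs. Whether each label belongs to the library that carries it could not be checked from the files, and a comparison by label rests on that. Median UMIs per cell were nearly equal in the 12 libraries (5231.5 to 5562), and whether depth had been equalised before deposit was not tested.

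By label, none of the 6 genes was called different from rest in fibroblast sums. For *Saa3* the replicates of one label differed more than the means of the labels did. *Saa3* stood at 10.8, 1161 and 1021 CPM in the libraries labelled rest and at 128, 644 and 7.29 CPM in those labelled peak. It stood at 58.9, 828 and 10.9 CPM in those labelled resolving and at 1344, 863 and 32.2 CPM in those labelled resolved, so each label held both low and high libraries. The quasi-likelihood test of edgeR (Benjamini-Hochberg adjustment, calls at an adjusted p under 0.05 with an absolute log2 fold change above 0.5) called 0 of 11763 genes (0%) for peak, resolving or resolved against rest. At an unadjusted p under 0.05 there were 77, 106 and 68 genes, and DESeq2 called 1 gene in each comparison, none of them a member. The fitted log2 fold changes of the 6 genes lay between -1.90 and 0.51, with adjusted p of at least 0.999. The lowest was that of *Lcn2* for resolving against rest (unadjusted p = 0.0645 from edgeR). Its libraries labelled resolving, none of them in run 4-6, stood at 47.5, 27.3 and 19.8 CPM. With the suffix run as a block 0 genes were called as well.

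By suffix run, all 6 genes were higher in the fibroblasts of run 4-6 than in those of run 1-3, and *Saa3*, *Hp*, *Slpi* and *Tnfaip6* also in run 7-9. In run 10-12 *Tnfaip6* alone was called, with 1695 ± 269 CPM there, 1588 ± 46.5 CPM in run 4-6 and 616 ± 178 CPM in run 1-3 (n = 3 each). For run 4-6 against run 1-3 edgeR called 4111 of the 11763 genes tested (34.9%), 16.7% higher, with 6 of the 6 members higher. For run 7-9 it called 19.1%, 10.3% higher and 8.79% lower, with 4 members higher and 0 lower, and for run 10-12 2.25%, 1.6% higher, with 1 member higher. For run 7-9 against run 4-6 it called 18.3%, 8.24% lower, with 3 members lower. With all cells thinned to 2000 UMIs these backgrounds were 21.1%, 13.1%, 1.74% and 9.34%, and 6, 4, 1 and 2 members were called. The first 3 of these comparisons share the libraries of run 1-3. The runs were set up because an earlier analysis of these files had found libraries alike by suffix, so the adjusted p-values are not independent evidence that the runs differ, and how the runs relate to the labels, animals or handling was not tested.

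*Saa3* was high in runs 4-6 and 7-9. Its sums were 10.8, 128 and 58.9 CPM in run 1-3 and 1344, 1161 and 644 CPM in run 4-6, in the order of the suffixes. They were 828, 863 and 1021 CPM in run 7-9 and 7.29, 10.9 and 32.2 CPM in run 10-12. All libraries of runs 4-6 and 7-9 lay above all libraries of the other runs. The log2 fold change from run 1-3 was 4.06 ± 0.65 (SE) in run 4-6 (16.7-fold, adjusted p = 1.8e-04) and 3.80 ± 0.65 in run 7-9 (adjusted p = 7.9e-04), and it was -1.93 ± 0.67 in run 10-12 (adjusted p = 0.143). Without rest replicate 1, in which *Saa3* was low, the last value became -2.45 and passed the test. Runs 7-9 and 4-6 differed by -0.26 ± 0.56 (approximate 95% interval -1.37 to 0.84, adjusted p = 0.771).

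Few cells carried most of this signal. The 115 fibroblasts with most *Saa3*, 1% of them, held 67.5% of its UMIs, and a single cell held 1468. The share of fibroblasts with a UMI of *Saa3* was 1.0% to 2.38% in the libraries of run 1-3, 19.8% to 32.9% in run 4-6, 11.4% to 14.3% in run 7-9 and 0.335% to 1.43% in run 10-12. The top 1% of cells held 14.1% of the UMIs of *Tnfaip6* and 26.3% to 42.9% of those of *Ptx3*, *Hp*, *Lcn2* and *Slpi*.

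*Hp*, which binds free haemoglobin, was high in the same 2 runs. Its sums were 47.1, 50.4 and 37.0 CPM in run 1-3 and 729, 855 and 548 CPM in run 4-6. They were 705, 764 and 701 CPM in run 7-9 and 59.2, 57.1 and 54.3 CPM in run 10-12, so runs 4-6 and 7-9 overlapped each other and neither overlapped the other runs. The log2 fold change from run 1-3 was 4.07 ± 0.17 in run 4-6 (16.8-fold, adjusted p = 2.9e-09) and 4.05 ± 0.17 in run 7-9 (adjusted p = 1.3e-08). It was 0.44 ± 0.16 in run 10-12 (adjusted p = 0.170), and runs 7-9 and 4-6 differed by -0.02 ± 0.15 (approximate interval -0.32 to 0.27, adjusted p = 0.928).

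*Slpi*, the elastase inhibitor, had the largest fold of the 6 in run 4-6. Its sums were 12.2, 9.32 and 24.3 CPM in run 1-3, 1229, 684 and 1097 CPM in run 4-6, 409, 320.1 and 371 CPM in run 7-9, and 19.6, 28.5 and 7.30 CPM in run 10-12. Run 4-6 was above run 7-9 in every library, and both were above the other runs. Against run 1-3 the log2 fold change was 6.15 ± 0.40 in run 4-6 (70.8-fold, adjusted p = 7.7e-08) and 4.66 ± 0.39 in run 7-9 (25.2-fold, adjusted p = 2.3e-06), and 0.40 ± 0.40 in run 10-12 (adjusted p = 0.644). Run 7-9 was lower than run 4-6 by a log2 fold change of -1.49 ± 0.31 (adjusted p = 0.0035).

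*Lcn2*, the siderophore-binding protein, was called higher in run 4-6 alone. Its sums were 37.6, 41.1 and 47.5 CPM in run 1-3, 159, 270 and 139 CPM in run 4-6, 27.3, 32.4 and 24.2 CPM in run 7-9, and 38.4, 19.8 and 47.2 CPM in run 10-12. Only the libraries of run 4-6 stood apart. Against run 1-3 the log2 fold change was 2.27 ± 0.29 in run 4-6 (4.82-fold, adjusted p = 2.5e-05), -0.52 ± 0.31 in run 7-9 (adjusted p = 0.235) and -0.14 ± 0.30 in run 10-12 (adjusted p = 0.849). Run 7-9 was lower than run 4-6 by -2.79 ± 0.30 (adjusted p = 3.1e-05). With coarser clusters (resolution 0.5), or with the unnamed *C1qtnf3* cluster counted as fibroblasts, *Lcn2* was also called lower in run 7-9 than in run 1-3, by -1.04 and -0.87.

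*Ptx3*, the soluble pattern recognition molecule, was also called higher in run 4-6 alone. Its sums were 118, 134 and 44.9 CPM in run 1-3, 371, 274 and 333 CPM in run 4-6, 255, 122 and 143 CPM in run 7-9, and 66.0, 58.5 and 147 CPM in run 10-12. Run 4-6 lay above all others, and run 7-9 overlapped runs 1-3 and 10-12. Against run 1-3 it had a log2 fold change of 1.79 ± 0.41 in run 4-6 (3.46-fold, adjusted p = 0.0025), 0.84 ± 0.40 in run 7-9 (adjusted p = 0.139) and -0.04 ± 0.40 in run 10-12 (adjusted p = 0.981). Run 7-9 against run 4-6 gave -0.95 ± 0.39 (adjusted p = 0.0931), which passed the test without resolving replicate 1 (-0.95) or without resolving replicate 2 (-1.36).

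*Tnfaip6*, the hyaluronan-binding protein, was lowest in run 1-3. Its sums were 819, 487 and 542 CPM in run 1-3, 1619, 1611 and 1535 CPM in run 4-6, 1211, 1045 and 1063 CPM in run 7-9, and 1430, 1686 and 1968 CPM in run 10-12. Run 1-3 lay below all other libraries, and run 7-9 lay between it and the other runs. Against run 1-3 it had a log2 fold change of 1.46 ± 0.17 in run 4-6 (2.75-fold, adjusted p = 9.3e-06), 0.89 ± 0.17 in run 7-9 (adjusted p = 0.0014) and 1.57 ± 0.17 in run 10-12 (2.96-fold, adjusted p = 7.7e-04). The call in run 7-9 was lost with coarser clusters (0.26) and with the *C1qtnf3* cluster added (0.43). Run 7-9 against run 4-6 gave -0.57 ± 0.16 (adjusted p = 0.0212), close to the fold limit, and the call was lost when rest replicate 2, rest replicate 3, resolved replicate 1 or resolved replicate 2 was left out (-0.51 to -0.56).

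**Figure D3:**
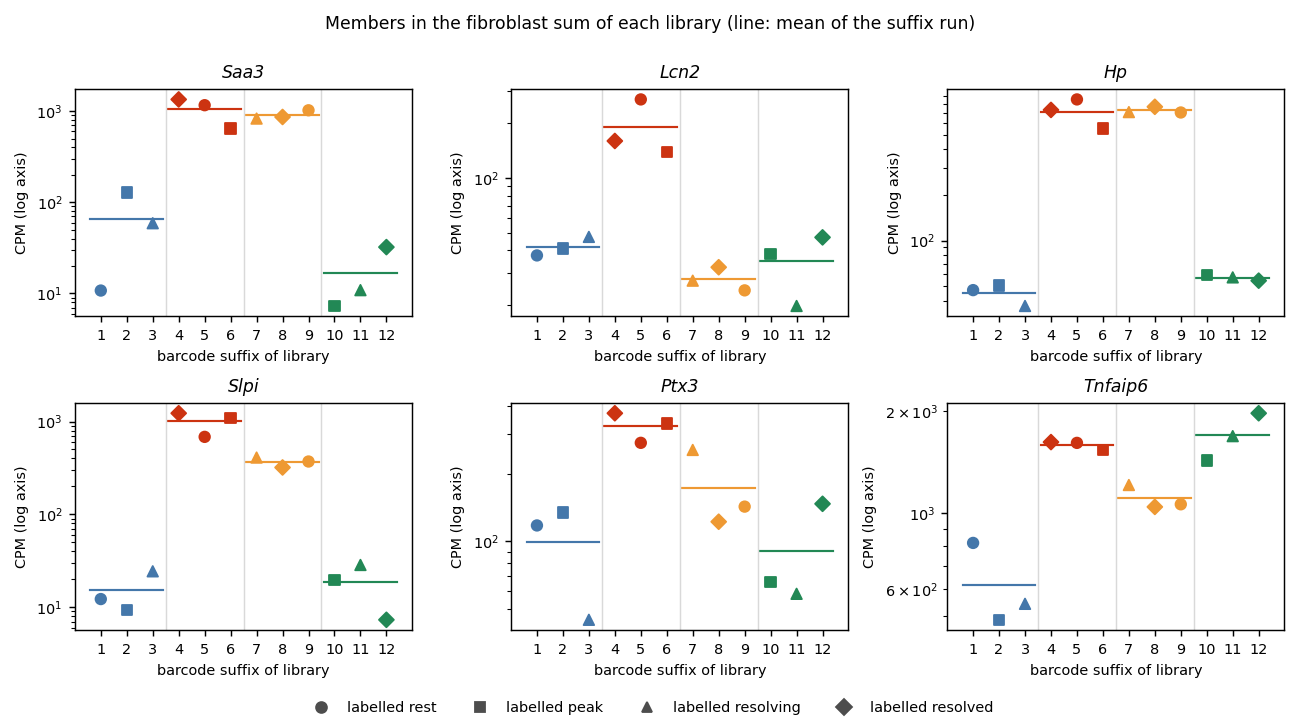
CPM of each gene in the fibroblast sum of each library, on a log axis, against the barcode suffix from 1 to 12, with the marker shape giving the label and a line at the mean of each suffix run. *Saa3*, *Hp* and *Slpi* are high in suffixes 4 to 9, and each label spans low and high libraries for them. *Lcn2* is high in 4 to 6, where no library is labelled resolving. *Tnfaip6* is lowest in 1 to 3, where none is labelled resolved.

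**Figure D4:**
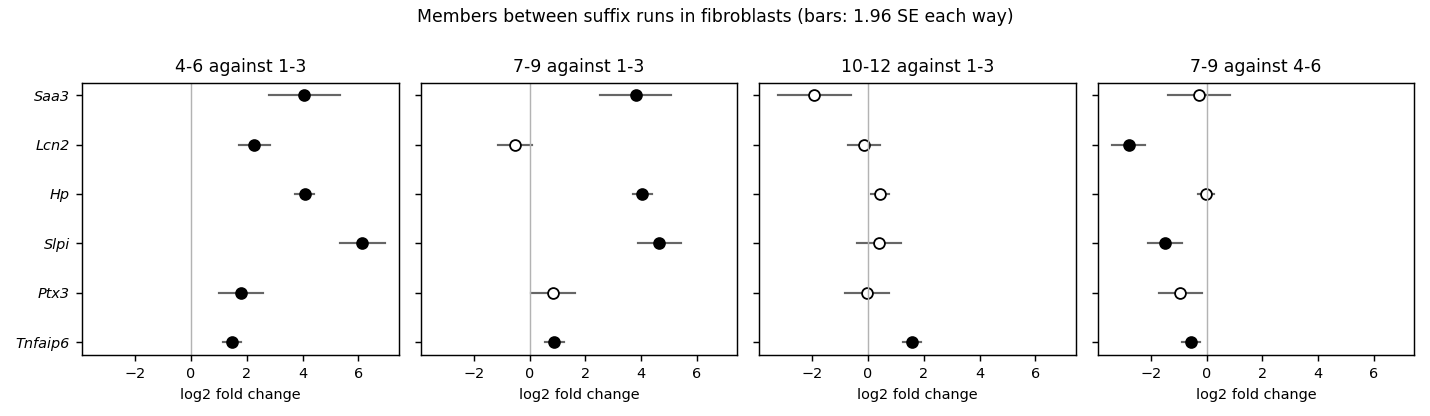
log2 fold change of each gene in 4 comparisons of suffix runs from edgeR's quasi-likelihood fit, with filled points for calls. Bars are approximate 95% intervals, taken from the SE by a normal approximation and narrower than those of the test. All 6 points are filled for run 4-6 against run 1-3, and *Tnfaip6* alone for run 10-12.

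Transcripts of immune cells in the fibroblast sums differed between runs as well. The sum of 12 neutrophil and other immune markers in the fibroblasts was 4.66 to 8.57 CPM in run 1-3, 14.2 to 79.9 CPM in run 4-6, 22.8 to 46.7 CPM in run 7-9 and 3.28 to 16.7 CPM in run 10-12, and 1 to 4 of the markers were at 0 in a library. Of 5 such markers tested, 3 were called higher in run 4-6 (16.7% of all genes), with *S100a9* at a log2 fold change of 3.52, *S100a8* at 3.25 and *Cd74* at 1.97, and 3 in run 7-9 (10.3% of all genes), with *Retnlg* at 3.70, *S100a9* at 3.26 and *S100a8* at 2.76. None was called in run 10-12 or between runs 7-9 and 4-6 (2.25% and 18.3% of all genes). In the immune-like cells of peak replicate 2, resolved replicate 2 and resolving replicate 2 there were 0.0702, 0.110 and 0.0799 UMIs of *Lcn2* per UMI of *S100a8*, but in the fibroblasts of the same libraries 4.47, 5.81 and 1.66. For *Hp* these ratios were 0.0155, 0.0111 and 0.0130 in immune-like cells and 17.7, 137 and 42.7 in fibroblasts. In the fibroblasts both genes thus had far more UMIs per UMI of *S100a8* than in the immune-like cells of the same library.

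Genes that answer to tissue dissociation also differed. Their 20 members summed to 24137 to 32099 CPM in run 1-3, 17772 to 18475 CPM in run 4-6, 21194 to 22271 CPM in run 7-9 and 23471 to 31640 CPM in run 10-12. In run 4-6, where 16.7% of all genes were higher and 18.3% lower, 1 was called higher (*Ier3*, 0.80) and 7 lower, led by *Hspa1a* (-1.50) and *Hspa1b* (-1.46), and in run 7-9, with 8.79% of all genes lower, 4 were lower, led by *Ier2* (-0.73), *Junb* (-0.70) and *Hspa1a* (-0.69). In run 10-12, with 1.6% of all genes higher and 0.655% lower, 5 were higher, with *Ier3* at 1.0 and *Zfp36* at 0.90, and 1 lower (*Dnajb1*, -1.02). Against run 4-6, with 10% of all genes higher, 4 were higher in run 7-9, led by *Hspa1b* (0.99), *Hspa1a* (0.80) and *Dusp1* (0.59). The part of these genes in the results above was not tested.

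The makeup of the fibroblasts changed between runs, so the comparisons were repeated, after the data had been seen, in the 6 clusters that had at least 5% of their cells in every run. There, 9.06% of the genes tested and 5 of the 6 members were called for run 4-6, with *Slpi* at 5.85, *Saa3* at 2.95, *Hp* at 2.38, *Tnfaip6* at 1.81 and *Lcn2* at 1.80. *Ptx3* fell to 0.74 and lost the call (adjusted p = 0.335). For run 7-9 3 members were called of a background of 6.64%, namely *Slpi* (4.65), *Hp* (2.84) and *Tnfaip6* (0.86), and *Saa3* was at 0.36 (adjusted p = 0.830). For run 10-12 *Tnfaip6* alone was called (1.57, background 2.03%), and of run 7-9 against run 4-6 *Lcn2* (-2.11) and *Tnfaip6* (-0.96), with *Saa3* at -2.60 (adjusted p = 0.0827, background 3.23%). In run 7-9 *Saa3* was higher in other clusters. In the *Col14a1*, *Acp5* and *Mdk* cluster of that run it averaged 1392 ± 794 CPM and in the *Cxcl5*, *Sfrp1* and *Chl1* cluster 2197 ± 1811 CPM, but in the *C4b*, *Inmt* and *Serpina3c* cluster 151 ± 115 CPM (n = 3 each), where run 4-6 had 1793 ± 1540 CPM.

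In lining-like fibroblasts alone the runs differed as well. *Slpi* averaged 81.0 ± 84.8 CPM in run 1-3, 2735 ± 974 CPM in run 4-6, 951 ± 95.4 CPM in run 7-9 and 78.8 ± 65.4 CPM in run 10-12 (n = 3 each). *Tnfaip6* averaged 463 ± 172, 2731 ± 407, 1059 ± 61.2 and 2152 ± 251 CPM in the same order. *Slpi* was thus high in runs 4-6 and 7-9, and *Tnfaip6* was lowest in run 1-3 and next lowest in run 7-9. Of the 5 members tested there, *Saa3* (5.12), *Slpi* (5.13), *Hp* (5.02) and *Tnfaip6* (2.48) were called for run 4-6 (background 16.2%) and *Saa3* (5.54), *Hp* (6.04), *Slpi* (3.59) and *Tnfaip6* (1.1) for run 7-9 (background 10.3%). *Tnfaip6* alone was called for run 10-12 (2.22, background 0.811%) and between runs 7-9 and 4-6 (-1.38, background 3.30%). *Lcn2* was too low to be tested in these cells.

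Outside the fibroblasts *Lcn2* differed in its order of runs, given here as levels without a test. In tenocyte-like cells it was 21.8 ± 4.5 CPM in run 1-3, 352 ± 38.8 CPM in run 4-6, 645 ± 275 CPM in run 7-9 and 27.7 ± 18.4 CPM in run 10-12 (n = 3 each). In lymphatic endothelial-like cells it was 768 ± 174 CPM in run 1-3 (n = 2), 211 ± 46.1 CPM in run 4-6 (n = 3), 94.1 ± 133 CPM in run 7-9 (n = 2) and 606 ± 141 CPM in run 10-12 (n = 3). The runs that were high for *Lcn2* in tenocyte-like cells were thus the low ones in lymphatic endothelial-like cells. *Hp* in perivascular-like cells was 18.5 ± 18.5, 447 ± 217, 173 ± 65.7 and 46.0 ± 72.5 CPM in runs 1-3, 4-6, 7-9 and 10-12.

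A minority of single fibroblasts held several of the 6 transcripts. After thinning to 2000 UMIs, 39.1% of 11279 cells held none of the 6, 24.4% at least 2 and 9.65% at least 3. At least 3 were found in 1.28% of the cells of run 1-3, 24.5% of run 4-6, 9.81% of run 7-9 and 1.85% of run 10-12. All 6 were found in 16 cells, and 14 of these were of run 4-6.

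*Hp*, *Slpi* and *Lcn2* were more often found in cells with *Saa3* than in cells without. Of the 800 cells with *Saa3*, 53.0% held *Hp*, 41.5% *Slpi* and 26.0% *Lcn2*, against 10.3%, 7.85% and 5.48% of cells without it. Within run 4-6 alone the shares were 52.5% against 16.0% for *Hp*, 47.3% against 22.4% for *Slpi* and 34.7% against 10.3% for *Lcn2*, so the shares also differed within a run. *Tnfaip6* was found in 72.4% of cells with *Ptx3* and in 45.5% of those without. In run 1-3 these were 65.2% and 27.5%, and in run 4-6 73.5% and 62.6%. Over all runs the other genes were also more often found in cells with *Ptx3* than in cells without. The shares were 26.9% against 11.2% for *Hp* and 21.3% against 8.54% for *Slpi*. They were 16.1% against 5.71% for *Saa3* and 14.6% against 5.76% for *Lcn2*. *Slpi* was found in 18.9% of cells with *Lcn2* and 9.59% of those without over all runs, in 29.9% and 26.1% in run 4-6, and in 17.9% and 11.5% in run 7-9. These are counts of cells of shared libraries and carry no test.

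Over 99 sums of 11 cell types in 12 libraries, the genes whose log2(CPM + 1) followed each member most closely were listed, as a description of sums that share libraries and cell types. *Saa3* was nearest to *Mmp3*, a matrix-degrading enzyme (Pearson r = 0.75), *Il1rl1* (0.74) and *Crabp2* (0.72), and *Slpi* to *Sec61b* (0.75), *Il1rl1* (0.71) and *Mmp3* (0.70). *Hp* was nearest to *Plac8* (0.68), *Prdx5* (0.67) and *Sec61b* (0.65), and *Lcn2* to the ferritin gene *Fth1* (0.64), *Tgfbi* (0.60) and *Il6ra* (0.59). *Ptx3* was nearest to *Mmp19* (0.61), *Fbn1* (0.58) and *Vldlr* (0.58), and *Tnfaip6* to *Loxl1* (0.80), *Olfml2b* (0.80) and *Gpm6b* (0.77), the first 2 of which act on the matrix. Among the members themselves r was 0.76 for *Hp* and *Slpi* and 0.73 for *Saa3* and *Slpi*, but -0.06 for *Lcn2* and *Tnfaip6*.

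Fibroblasts with and without *Hk2*, the hexokinase that the study is about, were compared within each library. *Ptx3* and *Tnfaip6* were higher in the 5579 fibroblasts with a UMI of *Hk2* than in the 5918 without in 12 of 12 libraries. *Ptx3* averaged 253 ± 128 CPM in *Hk2*-positive and 92.8 ± 90.4 CPM in *Hk2*-negative cells, and *Tnfaip6* 1783 ± 485 and 638 ± 260 CPM (n = 12 libraries). In the *Hk2*-positive cells *Tnfaip6* ranged from 922 to 2691 CPM, and in the *Hk2*-negative cells from 238 to 1062 CPM. The log2 fold change, with the library as a block, was 1.86 ± 0.22 for *Ptx3* and 1.68 ± 0.10 for *Tnfaip6*, in a comparison in which 676 of 9874 genes were called (6.85%, with 4.21% higher and 2.63% lower). An earlier analysis of these files had shown the difference of *Ptx3*, so the values are a description.

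The other 4 genes were not called by *Hk2* status. *Lcn2* was at a log2 fold change of 0.39 ± 0.09, under the fold limit (adjusted p = 0.0025 from the same edgeR test), *Saa3* at 0.49 ± 0.34 (adjusted p = 0.303), *Hp* at 0.38 ± 0.16 (adjusted p = 0.0726) and *Slpi* at 0.05 ± 0.21 (adjusted p = 0.889). For *Saa3*, *Hp* and *Slpi* the plain mean over libraries was lower in the *Hk2*-positive cells, opposite in sign to the fitted value, at 481 against 493 CPM, 375 against 393 CPM and 345 against 363 CPM. In the clusters present in every run, *Saa3* (1.82), *Lcn2* (0.86) and *Hp* (0.78) were called too, so that 5 of the 6 members passed against a background of 7.59%. *Hk2*-positive cells had a median of 6052 UMIs and *Hk2*-negative cells 4981.5, and with all cells thinned to 2000 UMIs *Ptx3* was at 1.62 and *Tnfaip6* at 1.47, both still called, and *Lcn2* was called at 0.67 (background 8.54%). With *Hk2*-negative cells matched by cluster to the positive ones, the values were 1.66 for *Ptx3* and 1.59 for *Tnfaip6*.

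**Figure D5:**
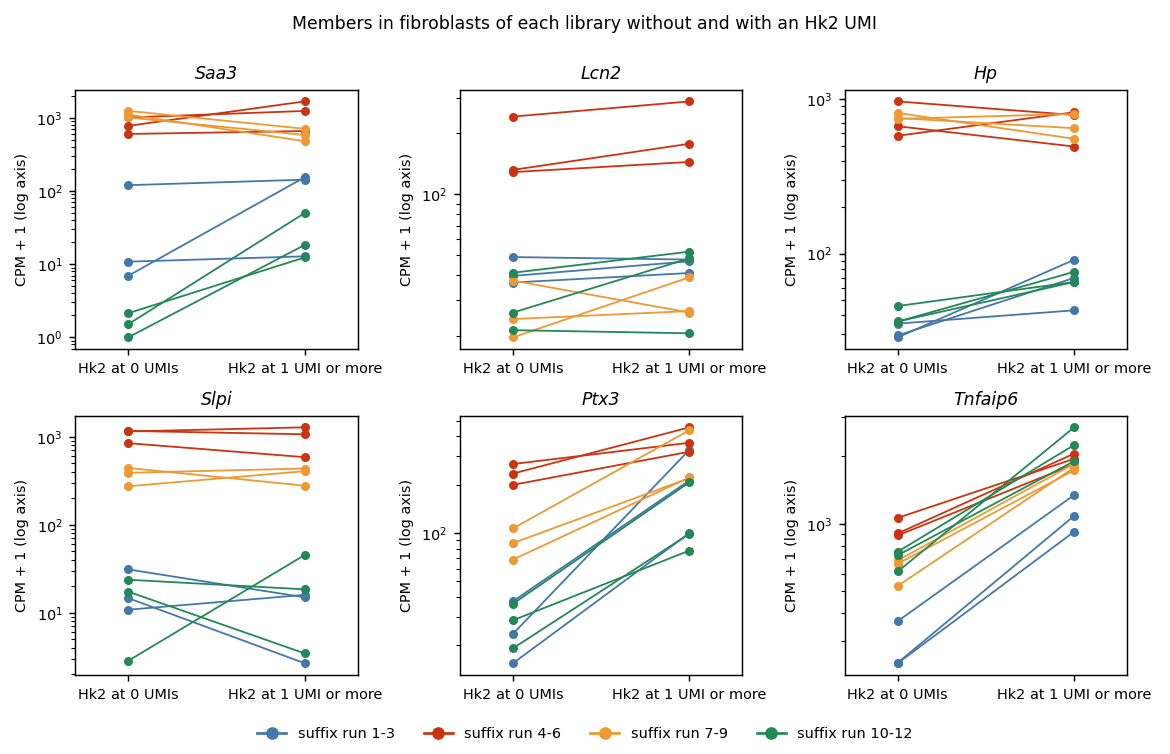
Level of each gene in *Hk2*-negative and *Hk2*-positive fibroblasts, as CPM + 1 on a log axis, with a line joining both values of each of the 12 libraries, coloured by suffix run. The lines of *Ptx3* and *Tnfaip6* rise in 12 of 12 libraries, while those of *Saa3* rise in 9 and fall in the 3 libraries of run 7-9.

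Genes of the same response were read from lists that had been drawn up with earlier results known. Of 11 other acute-phase genes tested, 2 were called higher in run 4-6 (16.7% of all genes were), *Serpina3g* at a log2 fold change of 5.98 and *Saa1* at 2.32, and 4 lower (18.3% of all genes), with *Serpina3c* at -1.68 as the largest. In run 7-9, with 10.3% of all genes higher and 8.79% lower, 1 was higher (*Serpina3g*, 4.11) and 5 lower, led by *Serpina3c* (-1.86) and *Serping1* (-0.77). In run 10-12, where 2.25% of all genes were called, none of the list was. Between runs 7-9 and 4-6, with 10% of all genes higher and 8.24% lower, 1 was higher and 3 lower, *Saa1* (-2.36), *Serpina3g* (-1.87) and *Serpina3n* (-1.09). The median log2 fold change of the list was -0.23 in run 4-6, -0.54 in run 7-9 and 0.27 in run 10-12, against -0.02, 0.00 and -0.01 over all genes tested. By *Hk2* status 3 of 9 were higher (4.21% of all genes), the metallothionein genes *Mt1* (0.95) and *Mt2* (0.94), and *Saa1* (0.61).

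Of 25 genes for inducing cytokines, their receptors and transcription factors, 10 were called higher and 4 lower in run 4-6, against 16.7% and 18.3% of all genes, with *Lif* at 2.65, *Il6ra* at -1.26 and *Tlr4* at -1.22 as the largest changes. In run 7-9 none was higher and 3 were lower (10.3% and 8.79% of all genes), *Il6ra* (-1.12), *Myd88* (-0.72) and *Socs3* (-0.72). In run 10-12 3 were higher and none lower (1.6% and 0.655% of all genes). They are all of the NF-kB pathway, namely *Nfkbiz* (0.89), *Nfkb1* (0.77) and *Nfkbia* (0.72). Between runs 7-9 and 4-6 2 were higher and 5 lower (10% and 8.24% of all genes), with *Lif* at -1.47, *Cebpa* at 1.25 and *Il1r1* at -0.99. By *Hk2* status 11 of 25 were higher and none lower (4.21% and 2.63% of all genes), led by *Nfkb1* (1.55), *Il6* (1.52) and *Lif* (1.49).

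Receptors, partners and related defence genes of the 6 proteins moved both ways. Of 17 tested, 6 were higher and 5 lower in run 4-6 (16.7% and 18.3% of all genes), with the antimicrobial peptide gene *Camp* at 4.26, *Itih2*, a heavy chain of inter-alpha-inhibitor, at -2.27 and *Thbs1* at 2.05. In run 7-9 4 were higher and 3 lower (10.3% and 8.79% of all genes), among them *Fgf2* at -1.48 and the lysozyme gene *Lyz2* at 1.31. In run 10-12 3 were higher (1.6% of all genes), *Ptx4* (2.42), the hyaluronan synthase gene *Has1* (0.95) and the hyaluronan receptor gene *Cd44* (0.78). Between runs 7-9 and 4-6 2 were higher and 5 lower (10% and 8.24% of all genes), led by *Wfdc12* (-2.35), *Camp* (-1.83) and *Has2* (-1.62). By *Hk2* status 4 of 12 were higher and none lower (4.21% and 2.63% of all genes), among them *Has1* (1.12), *Has2* (1.04) and *Thbs1* (0.84). Of the neutrophil list none of 2 tested was called by *Hk2* status. Of the dissociation list 3 of 20 were higher (4.21% of all genes), *Dnajb1* (0.71), *Fosb* (0.66) and *Ier3* (0.57). By label no gene of the 5 lists was called.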

How the data were processed

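Joint stromal cells of 12 libraries were measured by 10x 3′ (v2) scRNA-seq. The authors aligned the reads with Cell Ranger to mm10 and deposited filtered UMI counts per gene and cell, which carry no cell labels. Library medians of 5231.5 to 5562 UMIs per kept cell set the precision. Wilson intervals of shares of cells cover counting error only, while intervals of log2 fold changes come from the fit over libraries. The latter use the SE with a normal approximation and are narrower than those of the test.

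Cells with more than 500 and fewer than 5000 genes, and a UMI total above 500 and below 20000 (25000, 30000 or 40000 in some libraries, after the study's methods) were kept, 20060 of 21042. The higher limits were applied by label, 40000 in libraries labelled peak and 25000 or 30000 in those labelled resolving. They thus differ between libraries of one suffix run, and their effect was not tested. Clustering (scanpy 1.11.5, Python 3.11.15) used 2000 variable genes without the 6 genes, 30 principal components, 20 neighbours and Leiden resolution 1. A cluster was named where 4 markers of a type reached 20% of its cells with a log2 fold change of 1 or more, and fibroblasts where 5 of 7 markers were in at least 30%. Scrublet called 56 cells doublets, too few to be trusted, so doublets were kept, and removing the 6% with the highest scores was an alternative.

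UMI counts were summed per library and cell type and tested with edgeR 4.0.16 in R 4.3.3 (TMM, filterByExpr, quasi-likelihood test, Benjamini-Hochberg over all genes tested), and calls required an adjusted p under 0.05 with an absolute log2 fold change above 0.5, by label, by run of 3 barcode suffixes and by *Hk2* status. The procedure was tested on simulated data. Each library pooled 3 mice, so p-values measure the spread between pools. Alternatives were DESeq2 1.42.0, no filter on low counts, a replicate or run block, thinning to 2000 UMIs, coarser clusters, the unnamed cluster added, doublet removal and leaving out each library.

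The 6 genes and all gene lists were chosen with earlier results of these data known. Named genes were the 6, at most the 3 called genes of largest change per list and comparison (acute-phase proteins, inducers and transcription factors, receptors and partners, neutrophil and other immune markers, dissociation genes), the 3 genes most like each of the 6, and the 3 leading genes of a cluster. A gene that this rule names is not reported here.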

Additional observations from a re-analysis of the deposited data

Results flagged for a closer look

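*Saa3* differed by *Hk2* status in opposite directions between suffix runs. *Hk2*-positive minus *Hk2*-negative fibroblasts averaged 57.6 CPM in run 1-3, 400.0 CPM in run 4-6 and 25.4 CPM in run 10-12, and the positive cells were higher in all 3 libraries of each of these runs. In run 7-9 the average was -534.0 CPM, and the positive cells were lower in all 3 libraries. In runs 1-3 and 10-12 few fibroblasts held *Saa3*, so the differences there rest on few UMIs. In run 1-3 they were 1.99, 22.9 and 148 CPM in the 3 libraries. The difference between the runs was not tested.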

How the results depend on the processing

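Of the fold changes of the 6 genes under the alternatives, 608 kept direction and side of the threshold, 17 lost a call, 15 gained one and 22 changed sign. Mean levels by cell type moved beyond the spread once, for *Lcn2* in osteoblast-like cells at resolution 0.5 (5.18 CPM). DESeq2 called 1 gene for each label against rest, and gave *Slpi* -0.16 by *Hk2* status. Thinning to 2000 UMIs gave 2027 genes for run 4-6, 1254 for run 7-9, 167 for run 10-12 and 897 for run 7-9 against run 4-6. It also gave 0.03 for *Lcn2* and -0.10 for *Slpi* in run 10-12, 0.06 for *Hp* between runs 7-9 and 4-6, and -0.02 for *Hp* and -0.41 for *Slpi* by *Hk2* status. Without a filter on low counts run 10-12 had 526 genes and 2 of the 6. The next alternatives were chosen after seeing the data. Clusters present in every run gave 989, 725 and 352 genes for run 4-6, run 7-9 and run 7-9 against run 4-6, with *Hp* at 0.46 and *Ptx3* at 0.12 in the last, and 5 of the 6 by *Hk2* status. Lining-like fibroblasts alone gave 1157, 739, 58 and 236 genes for the 4 comparisons, *Ptx3* at 1.83 in run 10-12, and, for run 7-9 against run 4-6, 1 of the 6, *Saa3* at 0.42, *Hp* at 1.02 and *Ptx3* at 0.35. *Hk2*-negative cells matched by cluster were added too. The cause of these changes was not tested. Leaving out 1 library gave 94 (without resolved replicate 3) to 380 genes (without rest replicate 1) and 1 to 2 of the 6 for run 10-12, with *Lcn2* at -0.42 to 0.15 and *Ptx3* at -0.60 to 0.28. It gave *Hp* -0.19 to 0.15 between runs 7-9 and 4-6, and *Slpi* -0.09 to 0.13 by *Hk2* status.

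Same-numbered libraries did not deviate together throughout: their deviations correlated at -0.52 to 0.69, and all 3 pairs passed 0.1 between peak and resolving alone (0.396 to 0.552), so the numbers were not taken as pairs. All libraries of run 1-3 carry replicate number 1 and all of run 10-12 number 3, so the block overlaps the runs. With the replicate number as a block, run 7-9 had 269 genes and 2 of the 6, run 10-12 had 0 genes and 0 of the 6, and run 7-9 against run 4-6 had 1 of the 6. Calls lost with it were *Saa3* (4.24) and *Tnfaip6* (0.94) in run 7-9, *Tnfaip6* (1.67) in run 10-12, and *Slpi* (-1.33) and *Tnfaip6* (-0.53) between runs 7-9 and 4-6. *Ptx3* became 0.63 in run 10-12, and *Hp* became 0.00 between runs 7-9 and 4-6.

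In runs 1-3 and 10-12 few fibroblasts had a UMI of *Saa3* or *Slpi*, so their values there rest on few UMIs. Each type was rebuilt by clustering, and 554 cells lay under the thinning depth.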

Other observations

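Proliferating-like cells, which were numerous enough in 6 libraries, held 1158 ± 372 CPM of *Slpi* in run 4-6 and 290.3 ± 169 CPM in run 7-9 (n = 3 each). *Tnfaip6* stood at 1228 ± 322 and 507 ± 143 CPM in the same cells. Both were higher in every library of run 4-6 than in every library of run 7-9, while *Hp* overlapped, at 240.2 ± 72.6 and 204 ± 59.1 CPM. The unnamed *C1qtnf3*, *Spon2* and *Rgs2* cluster held 287 ± 211 CPM of *Saa3* and 269 ± 54.3 CPM of *Hp* in run 7-9 (n = 3). These values carry no test.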
